A study of Mus musculus with 2 samples.

Results

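Interferon-high (IFN-high) macrophages were defined here as tumour macrophages in which 6 interferon-induced genes, Ifit1, Ifit2, Ifit3, Cmpk2, Rsad2 and Oasl1, together gave 20 or more unique molecular identifiers (UMIs, each standing for 1 captured RNA molecule). The gate for a macrophage asked for at least 500 detected genes, at most 10% mitochondrial UMIs, at least 1% of UMIs from the complement genes C1qa, C1qb and C1qc, and no UMI of Cd3d, Cd3e, Cd3g, Mki67 or Top2a. Of 7005 barcodes in the series, 4269 passed this gate and 271 of them were IFN-high. The non-responder library held 129 of them among 1460 gated macrophages, and the responder library held 142 among 2809. They were compared, within each library, with IFN-low macrophages of the same gate that had under 5 UMIs of the 6 genes (1113 and 1990 cells). The 895 cells between these limits are called intermediate. The members were thus selected on the UMIs of the 6 genes and of the gate genes. Because the same RNA measurement chose the cells, every difference between IFN-high and IFN-low cells is a description and carries no test.

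The cells came from C57BL/6 mice bearing subcutaneous tumours of MC38-GFP+, a colon adenocarcinoma line that carries a green fluorescent protein, started from 50000 cells. Every mouse had received a sub-optimal regimen of anti-PD-1 antibody, which blocks an inhibitory receptor of T cells, at 100 ug per mouse and dose (day 12, day 15, day 18 and day 22), so no library came from untreated animals. Leukocytes were sorted by the surface protein CD45 before droplet capture, and the labels assign 1 library to responders and 1 to non-responders. The labels give neither the number of mice behind a library nor replicate libraries, so every difference between the 2 libraries lacks a replicate check and none was tested.

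Type I interferons are secreted by cells that sense foreign or misplaced nucleic acid. They bind the receptor made of IFNAR1 and IFNAR2, whose kinases JAK1 and TYK2 phosphorylate transcription factors. With IRF9 these form a complex that binds the interferon-stimulated response element (ISRE) in the promoters of antiviral genes. In tumours this programme is known for inducing chemokines that draw in T cells and for raising antigen presentation by myeloid cells. Of the selection genes, the IFIT proteins bind viral RNA, Rsad2 encodes viperin, Cmpk2 encodes a mitochondrial nucleotide kinase beside it on the chromosome, and Oasl1 encodes a relative of the oligoadenylate synthetases.

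The promoters of several of these genes carry the ISRE letters close to the annotated start, and 6 are shown: those of selection genes Ifit1 and Ifit3, of Ifit3b, Isg15 and Cxcl10 among the leading genes, and of Gbp2 as an example of the guanylate-binding proteins. Each stretch is read 5′ to 3′ along the gene's strand from RefSeq on GRCm38.p6. Capitals mark every match to the ISRE letters, GAAA and GAAA with any 2 bases between them, which on the opposite strand read TTTC, any 2 bases, TTTC.
Ifit1, chr19:34640765-34640833, plus strand: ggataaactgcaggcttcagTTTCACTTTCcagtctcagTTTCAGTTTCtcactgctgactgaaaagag
Ifit3, chr19:34583353-34583436, plus strand: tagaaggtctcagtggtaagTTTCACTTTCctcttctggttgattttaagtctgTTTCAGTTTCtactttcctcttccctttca
Ifit3b, chr19:34607749-34607832, plus strand: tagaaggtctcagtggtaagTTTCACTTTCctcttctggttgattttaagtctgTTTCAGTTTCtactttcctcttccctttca
Isg15, chr4:156200855-156200916, minus strand: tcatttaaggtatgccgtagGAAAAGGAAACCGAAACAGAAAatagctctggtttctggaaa
Cxcl10, chr5:92349073-92349122, minus strand: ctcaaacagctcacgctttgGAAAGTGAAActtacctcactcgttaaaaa
Gbp2, chr3:142620584-142620633, plus strand: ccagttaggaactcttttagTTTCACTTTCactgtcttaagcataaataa

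The Ifit3 and Ifit3b stretches are letter for letter the same over 84 bases, and reads from these near-identical copies may have been divided between the genes in the authors' counting. In Isg15, 3 matches overlap one another. Among all 32851 RefSeq promoters of this length (250 bases before to 50 after the start), 3.44% held the letters on either strand, and of the 4000 genes compared below, 5.51% of those with an entry had such a promoter. They stood in promoters of 3 of the 6 selection genes (Ifit1, Ifit3 and Rsad2) and of 8 of the 13 leading genes below that had an entry. Of the antiviral effector list, 17 of the 36 genes with an entry had a promoter with the letters, as did 5 of 6 immunity-related GTPases. The letters of the related gamma-activated site (GAS), TTCNNNGAA, stood in 8.30% of all promoters, and the 2 motifs can overlap. They were found for 4 of those 6 GTPases and for 7 of the 36 antiviral effectors, beside 8.44% of the genes compared. Ifit2 had a GAS match and no ISRE match, and Cmpk2, Oasl1, Irf7 and Cxcl9 had neither in this window. A match of letters is a description and not a measured binding site.

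IFN-high cells made up 8.84% of gated macrophages in the non-responder library (95% exact Clopper-Pearson interval 7.43 to 10.4) and 5.06% in the responder library (4.27 to 5.93). All intervals given cover counting error only. The rest of the distribution ran the other way: cells with none of the 6 genes were 37.4% of the non-responder macrophages and 23.2% of the responder ones. Intermediate cells were 14.9% and 24.1%. The non-responder macrophages thus had larger shares of cells at both ends, while a larger share of responder macrophages carried a few interferon-induced UMIs. Gated macrophages had a median of 11543.5 UMIs per cell in the non-responder library and 9690 in the responder library. The limit of 20 UMIs cut through a continuous range, with 41 non-responder and 84 responder cells just below it (15 to 19 UMIs) and 23 and 57 just above it (20 to 24). At the far end, 41 of the 129 non-responder members carried 50 or more UMIs (31.8%, interval 23.9 to 40.6), against 19 of the 142 responder members (13.4%, 8.25 to 20.1).

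**Figure D1:**
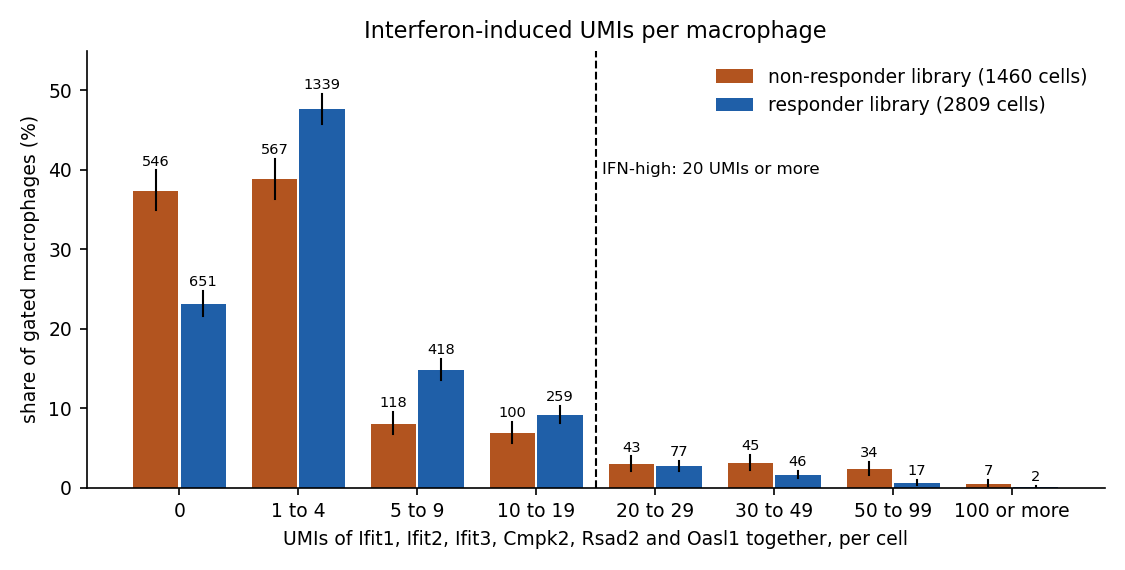
Share of gated macrophages (vertical axis, percent) by the UMIs of the 6 selection genes per cell (horizontal axis), with bars for the 2 libraries, lines for 95% exact binomial intervals and the number of cells above each bar. Right of the dashed line lie the IFN-high cells, 129 in the non-responder and 142 in the responder library.

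The make-up of the 6-gene UMIs, which the selection used, is given as a description. All 6 genes were detected in 71 of the 129 non-responder members and 59 of the 142 responder members, and no member had fewer than 3 of them. Ifit3 gave 39.1% of the 6-gene UMIs in the non-responder members and 43.2% in the responder members. Rsad2 gave 22.9% and 16.0%, and Cmpk2, the rarest, 3.97% and 3.57%. Per member the 6-gene total ran from 20 to 224 UMIs with a median of 39 in the non-responder library, and from 20 to 166 with a median of 28 in the responder library.

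The members carried macrophage RNA. All 12 genes of a monocyte and macrophage list were detected, and their summed level was 32348 CPM (a gene's summed UMIs scaled to a common total) in the non-responder members against 34264 in IFN-low cells, and 33715 against 33163 in the responder library. T cell markers summed to 3.13 and 4.31 CPM in the members, natural killer (NK) cell markers to 1.25 and 0.616, and fibroblast markers to 2.50 and 2.46. Dendritic cell markers summed to 20.7 and 48.0 CPM against 25.6 and 55.1 in IFN-low cells, with Flt3, Zbtb46, Cd209a, Ccr7 and Ccl17 at 0 in the members of both libraries. Only the plasmacytoid dendritic list stood higher in the members of both libraries by over 1.5 times, at 94.5 against 51.1 CPM and 88.0 against 56.2. Of its 6 genes, Siglech, Ccr9 and Klk1 were at 0 in all members, and Tcf4 gave most of the sum. Cox6a2 and Pacsin1 also had UMIs in the members of both libraries. Ccr9 and Klk1 were at 0 in the IFN-low cells as well, as was Siglech in those of the responder library. No doublet caller was run, and no gated cell exceeded 40000 UMIs.

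Members were deeper than IFN-low cells, more so in the responder library. Members had a median of 11977 UMIs per cell in the non-responder library against 11558 in IFN-low cells, and 11015 against 9435.5 in the responder library. The libraries held 32032569 and 45866561 UMIs over all barcodes. Both contained 14 barcodes of the same sequence, of which 2 were responder members and none a non-responder member. Cells outside the gate could also reach 20 UMIs: 43 of 519 dividing non-responder macrophages (8.29%) and 55 of 853 responder ones (6.45%) did so.

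Summed over cells, 82 genes were at least 2-fold higher in IFN-high than in IFN-low macrophages in both libraries, which is 2.05% of the 4000 genes at a mean of 20 CPM or more over the 4 sums. That mean includes the IFN-high sums, so some of the 82 genes passed it only through the members. Among them were Ifit3b, Mx1, Pydc3, Helz2, Ddx60 and Il15, each under 20 CPM in the IFN-low cells of both libraries. How many of the 82 did so is not given here. The 6 selection genes and the genes of the gate were left out of these counts. With the 82 included, 162 genes passed in the non-responder library (4.05%) and 85 in the responder library (2.12%). Of these, 80 passed in the non-responder library only and 3 in the responder library only. The fold was computed on CPM + 1, and the median over all genes was -0.08 on the log2 scale in the non-responder library and -0.03 in the responder library. For 79 of the 82 genes the ratio was larger in the non-responder library. Only 1 gene, Retnla, was at least 2-fold lower in both (0.025%). With Retnla included, 16 (0.4%) were lower in the non-responder library and 7 (0.175%) in the responder library.

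Ifit3b, the copy of Ifit3 at chr19:34607970-34613401, led the genes outside the 6 selection genes. Because reads may have been divided between these near-identical copies, Ifit3b was not independent of the selection. It was counted at 411 CPM in the non-responder members against 6.37 in IFN-low cells, and at 255 against 15.0 in the responder library, ratios of 64.6-fold and 17.0-fold. Mx1, a GTPase that blocks viral ribonucleoproteins (chr16:97447035-97462907), was at 159 against 7.36 CPM and at 112 against 11.7, which is 21.6-fold and 9.62-fold. Isg15, a ubiquitin-like modifier that is attached to other proteins (chr4:156199424-156200818), was the most abundant of this group, at 1915 against 165 CPM and 2094 against 319.9. In both libraries the intermediate cells lay between the other states for each of these genes, Isg15 at 879 and 1028 CPM.

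The chemokine Cxcl10, a ligand of CXCR3 on activated T cells (chr5:92346638-92348889), followed the same order of states. Its level was 1835 CPM in non-responder members against 110.3 in IFN-low cells (log2 ratio 4.06, interval 3.96 to 4.15), and 1479 against 227 in the responder library (2.70, 2.63 to 2.78). Usp18, which strips Isg15 from proteins and shuts off the interferon receptor (chr6:121245906-121270917), stood at 452 against 29.8 CPM and 447 against 65.8. The remaining leading genes were Isg20, an exonuclease, Nt5c3, a nucleotidase, the helicase genes Helz2 and Ddx60, the ligase gene Herc6, Phf11a, and Ifi205, Pyhin1, Pydc3 and Pydc4, which neighbour one another on chromosome 1. Their ratios ran from 5.77-fold (Isg20) to 19.99-fold (Ifi205) in the non-responder library and from 3.75-fold (Phf11a) to 9.06-fold (Pydc3) in the responder library. Isg20 differed least between the libraries, at 115 against 19.9 CPM and 92.3 against 17.3.

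**Figure D2:**
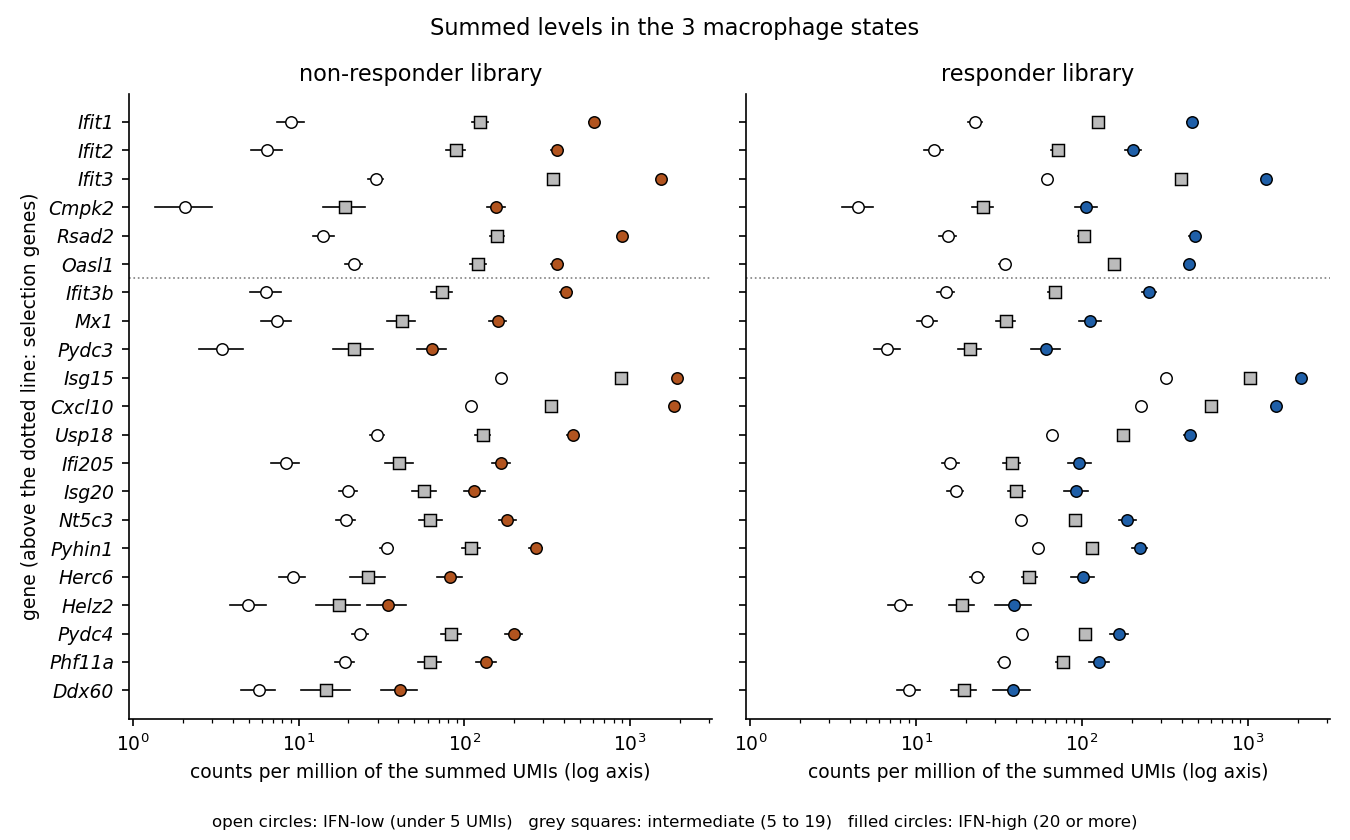
Level of each gene (horizontal log axis, CPM of the summed UMIs) in IFN-low, intermediate and IFN-high macrophages of each library, with 95% Poisson intervals. In all 15 genes below the dotted line the 3 states keep the same order, from Ifit3b at 6.37 to 411 CPM to Ddx60 at 5.75 to 40.7 CPM in the non-responder library.

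Most antiviral effectors were higher in the members. Of 42 listed genes, 36 reached the mean of 20 CPM, and 13 of these had a mean under that level in IFN-low cells and so passed through the members. In the non-responder library 33 of the 36 were at least 2-fold higher, and 28 were so in both libraries, beside the 2.05% of all genes. Their median log2 ratio was 1.99 and 1.47. Of the oligoadenylate synthetase genes, whose products make the activator of RNase L, Oas3 was at 68.9 against 13.6 CPM and 93.6 against 24.97, and Oas1g at 34.4 against 14.4 and 33.9 against 17.3. The kinase gene Eif2ak2 (PKR), which stops translation on double-stranded RNA, was at 74.5 against 27.2 CPM and 108 against 33.8. The smallest ratios belonged to genes that IFN-low macrophages already carried at high levels. Ifi27l2a was at 2517 against 1909 CPM and 2818 against 1924, Bst2 (tetherin) at 1503 against 1016 and 1672 against 1070, and Ifitm3 at 3718 against 1978 and 4791 against 3414.

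In the HIN-200 family, several of whose products sense DNA, all 7 measured genes had a ratio above 0 in both libraries. Of them, 6 were at least 2-fold higher in both, beside 2.05% of all genes compared. Mnda was at 434 against 70.6 CPM and 297 against 98.4, while Aim2, the DNA receptor of an inflammasome, was at 44.4 against 22.9 and 44.9 against 28.6. Genes of RNA sensors were also higher. Ifih1 (MDA5) was at 126 against 17.4 CPM and 100.3 against 28.9, and Ddx58 (RIG-I) at 75.1 against 14.9 and 61.6 against 18.0. Tlr3 missed the minimum mean of 20 CPM and was not among the genes compared, with sums of 30.04 against 4.37 and 19.7 against 7.03. Of the genes downstream of them, the adaptor gene Mavs was at 10.0 against 16.0 and 8.62 against 12.3, the kinase gene Tbk1 at 11.3 against 12.3 and 16.6 against 14.6, both under the minimum of 20 CPM, and Irf3 at 24.4 against 26.8 and 27.7 against 25.8. Irf7, which amplifies interferon genes, was at 1045 against 383 CPM and 1203 against 580.4.

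In the list of interferon receptors and their signalling genes, only Stat2 passed 2-fold in both libraries, at 72.6 against 18.3 CPM and 78.2 against 32.8. The type I receptor genes showed no such difference, with Ifnar1 at 46.9 against 66.6 and 65.2 against 62.2, and Ifnar2 at 77.6 against 84.8 and 99.1 against 100.4. Ifngr1, the ligand-binding chain of the interferon-gamma receptor, was lower in members, at 104 against 195 CPM (log2 -0.91, interval -1.14 to -0.68) and 123 against 159 (-0.37, -0.58 to -0.16). Among 7 measured negative regulators Usp18 alone passed 2-fold, and Ptpn6, Ptpn2 and Nfkbia stayed within 1.13-fold in both libraries.

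**Figure D3:**
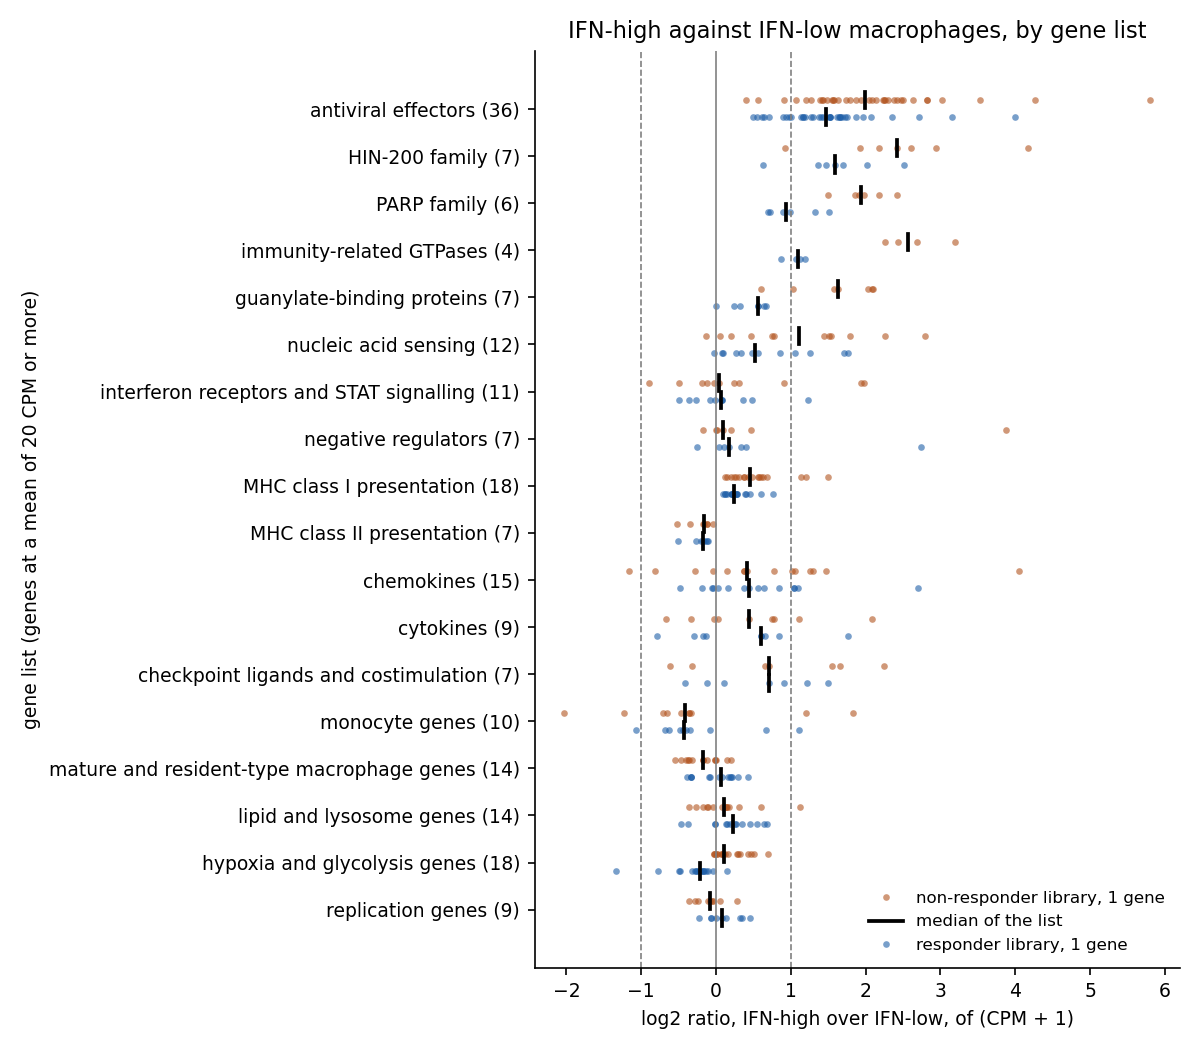
Log2 ratio of CPM + 1, IFN-high over IFN-low (horizontal axis), for each gene of 18 lists (points, coloured by library) and each list's median (black bars); dashed lines stand at 2-fold. The antiviral effectors have medians of 1.99 and 1.47, while MHC class II genes lie at -0.16 and -0.17.

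GTPase families that both interferon types induce had different ratios in the 2 libraries, a difference that was not tested. For the immunity-related GTPases, which act on vacuoles of intracellular pathogens, Iigp1 was at 188 CPM in the non-responder members against 19.6 in IFN-low cells, but at 283 against 124 in the responder library. Ifi47 was at 332 against 50.5 and 337 against 154. The guanylate-binding proteins had a median log2 ratio of 1.63 over 7 measured genes in the non-responder library and 0.56 in the responder library. Gbp2 was at 269 against 86.4 CPM, 3.11-fold, and at 611 against 518, 1.18-fold. In each of these genes the responder IFN-low cells were the higher of the IFN-low sums.

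All 18 class I genes had a ratio above 0 in both libraries, with medians of 0.46 and 0.24, and none reached 2-fold in both. H2-T22, a nonclassical class I gene, was at 419 against 181 CPM and 568 against 336, the peptide transporter gene Tap1 at 242 against 109.8 and 329 against 270.1, and B2m at 10987 against 9560 and 13455 against 12648. All 7 measured class II genes lay below 0 in both libraries, with medians of -0.16 and -0.17, but the non-responder median ranged from -0.45 to 0.08 over the processing alternatives. In that library the summed class II level was highest in intermediate cells, at 18856 CPM against 15243 in IFN-low cells and 13907 in members. H2-Ab1 was at 2228 against 2484 CPM and 12692 against 14259, and the invariant chain gene Cd74 at 7182 against 7784 and 31177 against 34513. The responder members with 50 or more UMIs, only 19 cells, had H2-Ab1 at 8729 CPM against 13727 in those with 20 to 29.

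Of 15 measured chemokines, 4 passed 2-fold in both libraries: Cxcl10, Ccl12, Ccl7 and Ccl5. Ccl12 and Ccl7 are ligands of CCR2, by which monocytes are recruited. Ccl12 was at 4999 CPM against 1799 in the non-responder library and 1532 against 744 in the responder library, and Ccl7 at 1627 against 781 and 1508 against 729. Ccl5, a chemokine that attracts T cells, was at 997 against 404 CPM and 3843 against 1794. Its call rested on single cells, since 1 non-responder member held 34.7% of the members' Ccl5 UMIs. Without the highest cell of each state the log2 ratios were 0.79 and 0.89. Cxcl9, the interferon-gamma-driven ligand of CXCR3, differed little between states in the responder library. It was at 125 against 61.2 CPM in the non-responder library, where 1 member held 32.7% of the UMIs, and at 767 against 685 in the responder library.

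Among cytokines, Il15, which sustains NK and memory T cells, was the one gene past 2-fold in both libraries, at 64.5 against 14.5 CPM and 56.6 against 16.0. It was under 20 CPM in IFN-low cells and so passed the minimum through the members. Tnfsf10 (TRAIL), a death receptor ligand, missed the minimum level; its sums were 25.04 against 0.844 CPM and 16.6 against 3.22. The interleukin-1 antagonist Il1rn was at 207 against 123 and 194 against 108, and Il18bp, which captures interleukin-18, at 118 against 54.1 and 464 against 295. Il1b itself was lower in members, at 162 against 258 CPM and 340 against 589, with log2 ratios of -0.66 and -0.79. Against IFN-low cells matched on depth these were -0.09 and -0.39. In the non-responder library 1 member held 24.7% of the members' Il1b UMIs.

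Of the checkpoint and costimulation genes, Cd40, the receptor for T cell help, was at 162 against 33.5 CPM and 149 against 63.6, and Cd69 at 101 against 33.7 and 113 against 39.7. Cd274, which encodes the PD-1 ligand PD-L1, was at 81.4 against 25.1 CPM (3.24-fold) and 84.9 against 51.4 (1.65-fold), and the ratio of responder to non-responder members was 0.06 on the log2 scale (interval -0.29 to 0.42). Vsir, the inhibitory ligand VISTA, was lower, at 178 against 274 and 259 against 346. Irg1, which makes itaconate, was at 237 against 33.4 CPM and 204 against 73.6. Nos2, the inducible nitric oxide synthase, missed the minimum mean of 20 CPM, with sums of 27.5 against 4.37 CPM and 22.8 against 15.1. Arg1, which consumes arginine, was at 593 against 713 and 287 against 376.

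Monocyte genes lay on both sides: of 10 measured, 8 were below 0 in each library. Ms4a4c was at 1034 against 289 CPM and 1152 against 533, and the high-affinity Fc receptor gene Fcgr1 at 1048 against 454 and 937 against 588. Ly6c2, a marker of recently arrived monocytes, was at 5.63 against 26.2 CPM and 47.4 against 64.9. In the non-responder library 1 IFN-low cell alone held 82 Ly6c2 UMIs. The share of cells with a Ly6c2 UMI differed little between the states. It was 6.20% of non-responder members and 6.29% of IFN-low cells, and 14.1% and 16.4% in the responder library. S100a6, a calcium-binding protein gene, was at 309 against 487 CPM (log2 -0.66, interval -0.79 to -0.52) and 246 against 395 (-0.69, -0.83 to -0.54). Of the 14 measured mature and resident-type macrophage genes none reached 2-fold, and their medians were -0.17 and 0.06. Apoe was at 12506 against 12668 CPM and 14811 against 12917, and Adgre1 (F4/80) at 309 against 337 and 294 against 277. Among 14 lipid and lysosome genes the medians were 0.11 and 0.22, and the foam-cell gene Trem2 was at 806 against 906 and 523 against 526.

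Besides S100a6 and Il1b, the genes named as lower in both libraries were Dok2, Ddx21, Emb, C5ar1, Snhg12, Ntpcr and Slc7a11. C5ar1, the receptor of the complement fragment C5a, was at 269 against 459 CPM and 196 against 284. Dok2, a docking protein gene that restrains receptor signalling, was at 21.9 against 47.6 CPM and 11.7 against 24.2. Slc7a11, the cystine transporter gene, was at 47.6 against 74.7 and 29.5 against 53.4. Retnla, a gene of interleukin-4-activated macrophages, was at 5.01 against 170.2 CPM in the non-responder library, and at 0 against 9.24 in the responder library, at least 5.001-fold lower against a floor of 3 counts over the members. Much of this difference came from single cells. In the non-responder library 1 IFN-low cell held 79.7% of the IFN-low UMIs of Retnla, and in the responder library 1 held 77.9%. Without those 2 cells Retnla fell under the mean of 20 CPM, and no gene at that level was 2-fold lower in both libraries. A Retnla UMI was seen in 4.65% of non-responder members and 2.79% of IFN-low cells, and in 0% and 0.704% in the responder library.

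Among the other fixed lists, the PARP family (6 of 6 measured, 3 of them under 20 CPM in IFN-low cells) had medians of 1.94 and 0.94, and 2 genes passed 2-fold in both libraries. Parp14 was at 102 against 18.2 CPM and 127 against 44.0. The 18 hypoxia and glycolysis genes, which mark cells short of oxygen, had medians of 0.10 and -0.22, with 15 above 0 in the non-responder library and 17 below 0 in the responder library. Ndrg1 was at 44.4 against 31.8 CPM and 9.23 against 24.9. The dissociation stress genes, which can be set off by tissue digestion, had medians of -0.22 and 0.02, and the replication genes -0.08 and 0.09. The part of these 2 programmes in the other differences was not tested. Marker sums of further cell types in the members were 28.2 and 59.1 CPM for B cells, 45.7 and 38.2 for neutrophils, 16.3 and 25.2 for endothelium, 1.88 and 6.77 for tumour epithelium and 3.13 and 1.85 for red cells.

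Free RNA in droplets can give a cell UMIs of genes it does not express, so shares of cells were compared after each cell was thinned to 3000 UMIs. Isg15 was then seen in 95.3% of non-responder members and 30.8% of IFN-low cells, and in 97.2% and 51.4% in the responder library. In T cells as a reference it was seen in 27.0% and 34.3%, so the non-responder IFN-low share lay near that level. This level need not be free RNA alone. Before thinning, 2 of 63 non-responder and 0 of 78 responder T cells had 20 or more UMIs of the selection genes. The richest non-responder T cell held 27 Isg15 UMIs, 27.8% of those in that group. How much Isg15 in T cells or IFN-low cells was free RNA was not tested. After thinning, Cxcl10 was seen in 69.0% of non-responder and 75.4% of responder members. It was seen in 11.1% and 17.9% of the T cells, which had median depths of 4920 and 3688.5 UMIs.

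**Figure D4:**
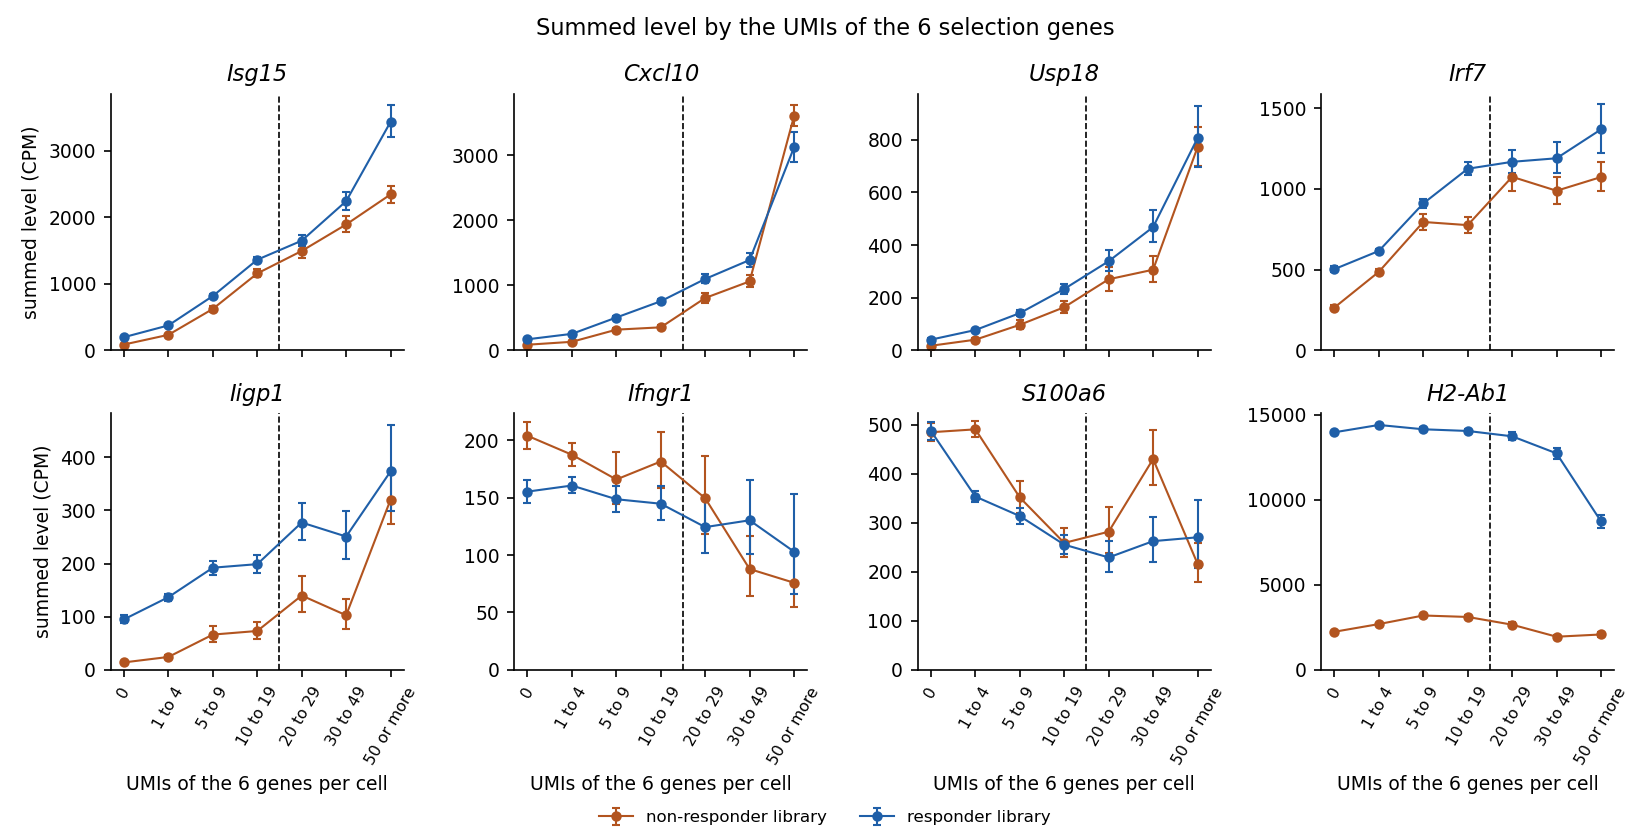
Level of 8 genes (vertical axes, CPM of the summed UMIs, starting at 0) by the UMIs of the 6 selection genes per cell (horizontal axes), with 95% Poisson intervals; the dashed line marks 20 UMIs. Cxcl10 runs from 86.4 to 3599 CPM and Ifngr1 from 204 to 75.9 CPM in the non-responder library, while Irf7 there lies at 1075, 988 and 1073 CPM past 20 UMIs.

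Across the range of the 6 genes, the other interferon-induced genes did not all follow the same course. Cxcl10 in the non-responder library was at 805 CPM in members with 20 to 29 UMIs, 1059 with 30 to 49 and 3599 with 50 or more, and in the responder library at 1097, 1388 and 3119. Usp18 followed it, from 270.1 to 772 and from 339 to 806 CPM. Irf7 was at 1075, 988 and 1073 CPM in the same bins of the non-responder library, and at 1168, 1190 and 1368 CPM in the responder library, where the last value had an interval of 1222 to 1527. Ifngr1 in the non-responder library was at 149 CPM with 20 to 29 UMIs and at 75.9 with 50 or more, and in the responder library at 124 and 103 CPM with overlapping intervals. Single members varied widely: per 10000 UMIs of a cell, the lower and upper quartiles of non-responder members were 11.2 and 26.8 for Isg15 and 1.44 and 26.8 for Cxcl10.

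The 2 groups of members were then set against each other. Of 3944 genes at a mean of 20 CPM or more in the members, 100 were at least 2-fold higher in the responder members (2.54%) and 100 were lower (2.54%). In IFN-low cells 121 of 4009 genes were higher (3.02%) and 75 lower (1.87%). By ratio, Gbp2b led the higher side, ahead of Itgb7 and Cd300e, and 3 of the 10 named genes were class II genes. H2-Ab1 was 5.70-fold higher in responder members and 5.74-fold higher in responder IFN-low cells, and H2-Aa 4.76-fold and 4.69-fold. Per 10000 UMIs of a cell, Cd74 had a median of 333 in responder members and of 15.2 in non-responder members. Gbp2b was at 2.50 CPM in the non-responder members and 91.1 in the responder members, and Cxcl9 was 6.16-fold higher in the responder members and 11.2-fold higher in the responder IFN-low cells. H2-Eb1, Ccl8, Upp1 and Ly6i completed the 10 named as higher.

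On the lower side stood several secreted and surface proteins of macrophages. Spp1 (osteopontin) was at 1179 CPM in non-responder members and 68.3 in responder members, and fibronectin, Fn1, at 240.4 and 17.9. In IFN-low cells the same genes were at 1267 and 61.5 and at 309 and 28.1. Fcrls was at 801 and 103 CPM in the members, Pf4 at 817 and 204, the tetraspanin gene Cd9 at 383 and 94.8, and Pmp22 at 142 and 3.08. Bhlhe41, Emp1, Lsp1 and Gpr137b-ps completed the 10 lowest. For Spp1 and Fn1 the members thus lay close to the IFN-low cells of their own library.

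For the interferon-induced lists the ratio between libraries was smaller in members than in IFN-low cells. The members of both libraries had passed the same limit on UMIs of 6 interferon-induced genes. A smaller ratio in members could thus follow from the selection, which was not tested, and is given as a description. Over the 23 antiviral effectors measured in both states, the median log2 ratio of responder over non-responder was 0.11 in members and 0.53 in IFN-low cells. For 6 guanylate-binding proteins it was 1.19 and 2.41, and for 4 immunity-related GTPases 0.30 and 1.83. For the 7 class II genes it was 2.12 and 2.15. The selection genes, which chose the members, are also given as a description. They were mostly lower in the responder members, Rsad2 at 478 CPM against 894 (log2 -0.90, interval -1.03 to -0.78) and Ifit2 at 204 against 364. Oasl1 was higher, at 443 against 362. No test of these differences between states was possible with 1 library each.

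**Figure D5:**
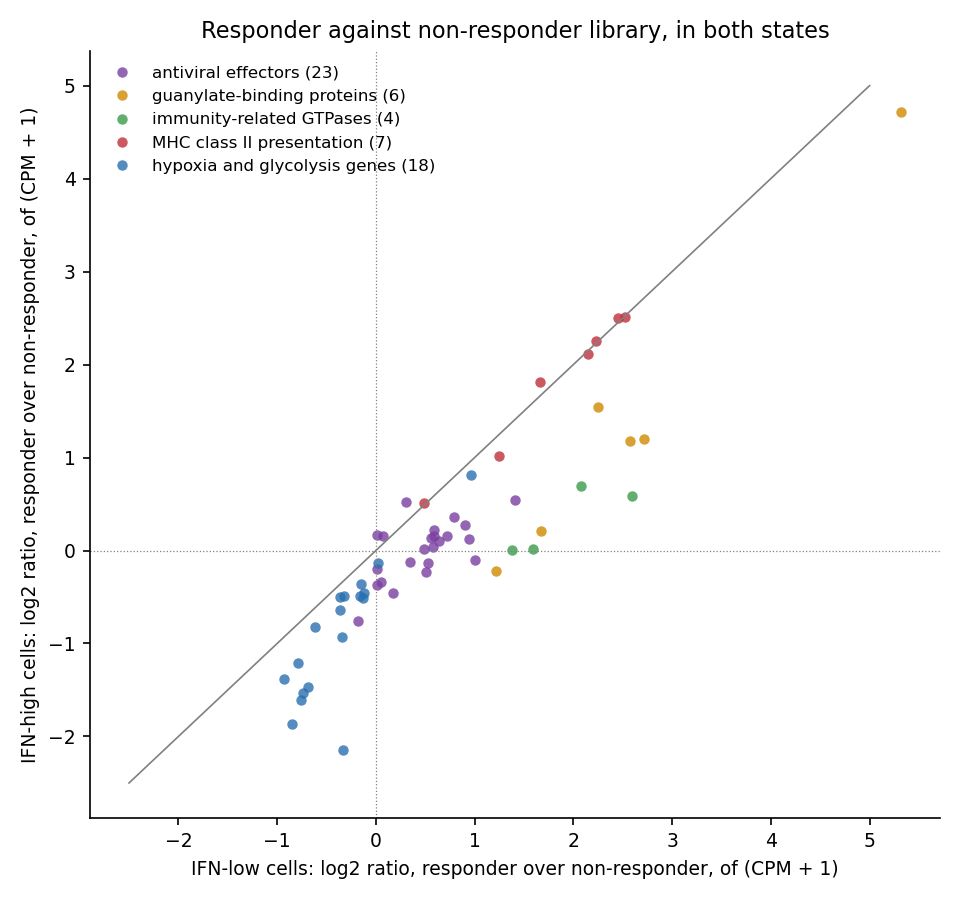
Log2 ratio of CPM + 1, responder over non-responder, in IFN-low cells (horizontal axis) and in IFN-high cells (vertical axis) for genes of 5 lists at a mean of 20 CPM or more in both states; the line marks equal ratios. Class II genes lie along the line (medians 2.15 and 2.12), and the guanylate-binding proteins lie below it (2.41 and 1.19). Members of both libraries were chosen by the same limit on interferon-induced UMIs.

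Interferon genes themselves were almost absent. Of 20 listed type I, II and III interferon genes, 16 had no UMI in IFN-high or IFN-low cells, which allows a level of up to 1.88 CPM in the non-responder members and 1.85 in the responder members. Of the other 4, Ifng and Ifnk had no UMI in members, and Ifna2 had 2 UMIs in 1 non-responder member. Ifnb1, the interferon-beta gene, had a UMI in 8 of the 129 non-responder members (6.20%, interval 2.72 to 11.9) and in 3 of the 142 responder members (2.11%, 0.438 to 6.05). In IFN-low cells this was so in 5 of 1113 (0.449%) and 3 of 1990 (0.151%). In a T cell reference (3 or more Cd3 UMIs, C1q at most 0.2%), it was so in 1 of 63 and 0 of 78 cells, the latter allowing a share of cells with a UMI of up to 3.85% (3 cells of the total), at median depths of 4920 and 3688.5 UMIs. The non-responder members held 56 Ifnb1 UMIs, 30 of them in 1 cell, and the responder members held 12.

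The 11 members with Ifnb1 UMIs, chosen for a closer view after their values were seen, are given by library, since the 3 responder cells did not share every feature of the 8 non-responder cells. In the 8 non-responder cells the 6-gene total ran from 29 to 80 UMIs, beside a median of 38 in the 121 other members. Their Ifit1 UMIs had a median of 20 against 4, but Ifit3 had a median of 5.5 against 16. Usp18 was at 0 or 1 UMI in each of them, against a median of 5 in the others, where 23 of 121 were at 1 or 0. Irf7 ran from 0 to 5 UMIs against a median of 12, and Ms4a4c from 0 to 6 against a median of 11. The chemokine gene Ccl4 ran from 41 to 225 UMIs against a median of 7, and Tnf from 2 to 8 against a median of 1. The 3 responder cells had Ifit1 at a median of 2 against 4 and Ifit3 at 6 against 13. They also had 1 Usp18 UMI each, against a median of 5 in the other 139, but their Irf7 (9 to 12 UMIs) lay near the median of 13. Median depth was 11189.5 UMIs in the 8 cells and 12129 in the other non-responder members. Outside the macrophage gate, 11 of 91 non-responder cells with 20 or more UMIs of the 6 genes held Ifnb1 UMIs, against 1 of 87 responder cells. The median in these 11 was 1 for Usp18 and 203 for Ccl4, against 4 and 5.5 in the other 80, while Ifit3 had a median of 17 against 15.5.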

How the data were processed

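Droplet 3′ RNA libraries of sorted CD45+ tumour cells were available from 1 responder and 1 non-responder group. The authors deposited raw UMI counts per gene and barcode; Cell Ranger 1.1.0 and the builds mm10 and GRCm38 are named per the submitters' processing notes. UMIs were summed per library and state (IFN-high, intermediate, IFN-low) in Python 3.11.15 with numpy 2.4.6, scipy 1.17.1 and pandas 2.3.3, and scaled to CPM. Genes needed a mean of 20 CPM; a gene was called at 2-fold on CPM + 1. Ratios in the text are of CPM with exact conditional 95% intervals; list medians use CPM + 1. With 1 library per group no test was made. The interval code was tested on simulated data. Symbols shared by several identifiers (56) were summed. Coordinates are from GENCODE M21, which held 27645 of 27998 identifiers, and promoters from RefSeq.

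The members and lists were chosen with earlier results of these data known. Named genes were the 15 highest and 10 lowest by the interval bound nearest 0 with the same direction in both libraries, the 10 highest and 10 lowest between libraries, the selection genes, and from each list its extremes and genes of a defining role. The promoter check over the 82 higher genes was void, because 65 (79.3%) had an entry, under the limit set. Alternatives were other thresholds, gates, filters, pseudocounts, thinning, depth matching and TMM scaling (edgeR 4.0.16, R 4.3.3). Some withheld items are not reported here.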

Additional observations from a re-analysis of the deposited data

Results flagged for a closer look

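For 12 genes of the fixed lists the log2 ratio of IFN-high over IFN-low cells had opposite signs in the 2 libraries with both 95% counting intervals excluding 0, and the difference between the libraries was not tested. Further genes had opposite signs with an interval that included 0 in at least 1 library. The share of all compared genes that met this rule is not given here, so the count has no background and is a description. Of the 12, 6 belong to the hypoxia and glycolysis list and were higher in the non-responder members and lower in the responder members. Ndrg1 had 0.48 and -1.43, the glucose transporter gene Slc2a1 0.70 and -0.33, and hexokinase Hk2 0.32 and -0.49. The ratios were smaller for Ldha (0.16 and -0.11), Mif (0.11 and -0.23) and Tpi1 (0.082 and -0.26). The opposite signs were seen in Fabp5, a fatty acid binding protein gene (-0.27 and 0.65), the transcription factor genes Maf (-0.33 and 0.43), Egr1 (-0.50 and 0.58) and Fos (-0.30 and 0.07), the lysosomal protease gene Ctsd (-0.13 and 0.27), and Lyz2 (-0.27 and 0.06).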

How the results depend on the processing

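The IFN-high share was higher in the non-responder library under every setting run. It was 15.7% and 14.3% with a threshold of 10 UMIs and 4.38% and 0.997% with 40, and 5.99% in the responder library after thinning to 5000 UMIs. The 82 genes higher in both libraries became 130 with no filter, 131 with a threshold of 40 UMIs and 185 at 1.5-fold; leaving out a library gave 85 to 162. The single lower gene became 2 with a pseudocount of 0.1 CPM, 0 with 10 CPM, 5 with a filter of 5 CPM, 44 with no filter, 3 after thinning, 10 with a threshold of 40 UMIs, 5 without cells carrying markers of other types, 25 at 1.5-fold, 0 with depth-matched comparison cells, 0 without the cell richest in Retnla (chosen after seeing the data), and 7 to 16 leaving out a library. Between libraries, 100 higher and 100 lower genes became 64 and 65 with a pseudocount of 10 CPM, 290 and 324 with a filter of 5 CPM, 855 and 920 with no filter, 192 and 180 with a threshold of 40 UMIs, 173 and 223 without cells carrying other markers, and 317 and 378 at 1.5-fold; thinning gave 161 lower. Apart from the changed number of genes or cells in these settings, the cause was not tested. Each named gene whose ratio was recomputed kept its sign under all settings run. List medians that did not keep theirs were, in the non-responder library, MHC class II (-0.45 to 0.08), monocyte (-0.54 to 0.07), interferon receptor and signalling (-0.03 to 0.23), lipid (-0.07 to 0.19) and replication (-0.26 to 0.04). In the responder library they were interferon receptor and signalling (-0.11 to 0.17), mature macrophage (-0.09 to 0.13), Nos2 and Arg1 type (-0.39 to 0.41), dissociation stress (-0.004 to 0.23), replication (-0.34 to 0.77) and the macrophage markers (-0.10 to 0.04). Few cells per state and 1 library per group limit every comparison. No paired analysis was possible because each group has 1 library.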
